A study of Mus musculus with 165 samples.

Results

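Collagen genes were followed in the brain and liver of ageing mice. The members are the rows of the 2 count tables whose symbol is Col, a number, a and a number (Col1a1, Col18a1), which gave 44 of 55471 rows in each table. They were sorted by the kind of structure their proteins build: 11 fibrillar chains, 6 basement membrane chains (type IV) and 27 others. The others were 6 beaded filament chains (type VI), 9 fibril-associated chains (FACIT collagens, which sit on the surface of fibrils), 3 short-chain network formers, 2 multiplexins, 4 transmembrane collagens and 3 remaining ones.

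The animals were male mice of the strain C57BL/6J/Ukj, kept for ageing without any treatment and sampled at 3, 9, 15, 24 and 28 months, and no genetic change was named. PolyA RNA of the brain and of the liver was sequenced, with 15, 16, 16, 17 and 18 brain libraries and 16, 16, 16, 17 and 18 liver libraries in the order of the ages. A brain and a liver library that share age and number are from 1 mouse, and each age was spread over 3 library preparations, called prep 1 to 3 here.

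Collagens are trimers of chains wound into a triple helix, with glycine repeated along each chain. Chains of type I and III, made by fibroblasts and in the injured liver by activated stellate cells, assemble into the fibrils that give tissue its tensile strength, with type V chains setting fibril width. Type IV chains form the sheet under endothelium and epithelium. In the healthy brain most collagen lies in vessel basement membranes, the meninges and the choroid plexus, whereas the liver holds fibrils around portal tracts and central veins and a thin network along the sinusoids.

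Totals of assigned counts ran from 11.461 M to 73.39 M per brain library (median 37.575 M) and from 5.823 M to 57.49 M per liver library (median 32.856 M). The labels matched the tissues: Alb, the hepatocyte's albumin, reached at most 18.5 CPM (counts scaled to the library's total, with TMM factors, which equalise the bulk of genes between libraries) in a brain library and at least 14020 in a liver library, and the neuronal Snap25 at least 966 in the brain and at most 40.4 in the liver. The brain library of 28 months, replicate 15, stood apart, with a median Spearman correlation of 0.866 with the other brain libraries, whose own median was 0.993. In the liver the lowest was replicate 13 of 24 months at 0.919, where the median was 0.984. Every pair of libraries differed by more than sampling noise. In whole tissue, fewer cells of a type and less RNA per cell cannot be told apart.

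Promoter sequence is shown for the genes on which the brain results turn, Col3a1 and Col1a2, and for the point where the type IV pair Col4a1 and Col4a2 meet. All are from RefSeq on GRCm38.p6, plus strand, and read 5′ to 3′. The first 2 lines hold the 250 bases before the RefSeq start site of each gene (chr1:45311288-45311537 and chr6:4505368-4505617). Capitals mark matches to 3 motifs, each searched on both strands. The first is the TATAAA form of the element known as TATA. The second is the CCAAT box, a common promoter element. The third is the box GGGCGG, to which factors of the Sp family are known to bind. A match on the other strand would show as the reverse complement of these letters. The matches do not overlap one another in these windows. The Col1a2 window lies inside the gene as the GENCODE annotation draws it, since that model starts at 4504814. Gene coordinates, exon lengths and overlaps given here are from that annotation. The third line holds 30 bases (chr8:11312801-11312830), where capitals mark the 22 bases that Col4a1, read on the minus strand, and Col4a2, read on the plus strand, share at their first exons (11312805 to 11312826).
Col3a1: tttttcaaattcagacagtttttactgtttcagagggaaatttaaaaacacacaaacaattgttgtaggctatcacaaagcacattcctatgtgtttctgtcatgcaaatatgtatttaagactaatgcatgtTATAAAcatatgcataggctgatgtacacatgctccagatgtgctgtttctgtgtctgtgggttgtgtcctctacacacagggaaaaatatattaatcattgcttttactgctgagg
Col1a2: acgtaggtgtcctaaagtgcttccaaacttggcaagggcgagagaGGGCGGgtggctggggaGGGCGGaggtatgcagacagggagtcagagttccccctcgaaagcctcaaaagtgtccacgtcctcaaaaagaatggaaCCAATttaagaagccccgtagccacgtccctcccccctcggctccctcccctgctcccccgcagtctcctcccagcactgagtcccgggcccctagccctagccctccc
Col4a1 and Col4a2: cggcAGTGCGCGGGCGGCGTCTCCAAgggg

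The promoter table had entries for 35 of the 44 members, and none for Col12a1, Col14a1, Col1a1, Col22a1, Col26a1, Col2a1, Col4a3, Col5a2 and Col9a3. CCAAT was found before 13 of the 35 members and before 33.8% of all 32851 promoters, TATAAA before 5 members and 12.4% of all, and GGGCGG before 21 members and 32.7% of all. These are matches of letters, not sites at which a factor was measured.

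In number, 43 members passed the filter on low counts in the brain and 33 in the liver. Col10a1, a growth plate collagen, passed in neither. Missing from the liver fit were also Col2a1, Col6a4, Col9a1, Col9a2, Col11a1, Col17a1, Col19a1, Col22a1, Col26a1 and Col28a1. Col10a1 had 0 counts in every liver library, where a count of 0 allows up to 3 counts, or 0.0522 to 0.515 CPM depending on depth. Col26a1 had 1 count in all liver libraries of 28 months together and 0 in the others.

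Compared per kilobase of exon at 3 months, the brain's leading collagen transcripts were Col4a2 at 14.1 CPM per kb, Col6a1 at 11.9 and Col4a1 at 10.2. Col25a1, a transmembrane collagen of neurons that binds amyloid, followed at 6.68 and the fibrillar Col11a2 at 5.33, while Col1a1 stood at 1.85, Col1a2 at 1.27 and Col3a1 at 0.388. In the liver Col18a1, the multiplexin of vascular basement membranes from which endostatin is cut, stood at 143 CPM per kb. The next liver members were Col14a1 at 8.48, Col4a1 at 7.18, Col5a3 at 6.45 and Col4a2 at 6.04. Summed over the 44 members, collagen transcripts made up 626 ± 73.1 CPM (SD, n = 15) of the brain at 3 months and 585 ± 110 (n = 18) at 28 months, and 1385 ± 121 (n = 16) and 1350 ± 97.6 (n = 18) of the liver. The ranges of these sums overlapped in both tissues. Most of the liver sum was Col18a1, so it says little of the other members.

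In the brain the fibrillar chains of type I and III fell with age. Between 28 and 3 months 11 of 43 tested members changed with the adjusted p below the threshold of 0.05 (25.6%). The test here and for every count of called genes was the quasi-likelihood F test of edgeR, with p-values adjusted by Benjamini and Hochberg's method over the whole tissue. The share was read against 28.3% of all genes tested. Of the members 4 rose and 7 fell, where 16.3% of all genes rose and 12.0% fell. By class, 6 of 11 fibrillar chains were called, 1 of 6 type IV chains and 4 of 26 others. The median log2 fold change was -0.07 over the members and 0.01 over all genes. All 11 called members kept their direction when preps 1, 2 and 3 were fitted separately, and 0 of them passed the threshold in all 3 preps. The preps are parts of the fit that chose these members, so the shared direction is no independent check.

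Col3a1, the chain of the thin reticular fibrils that accompany type I collagen (ENSMUSG00000026043, chr1:45311538-45349706, plus strand, 50 exon blocks), showed the steepest decline among the brain members tested. Its values ran from 1.76 over a median of 2.95 to 7.28 CPM at 3 months, from 1.11 over 1.79 to 2.65 at 9 months, from 1.05 over 1.58 to 5.86 at 15 months, from 1.03 over 1.66 to 8.08 at 24 months and from 0 over 1.50 to 2.92 at 28 months. All 18 brains of 28 months lay below the 3-month median and 11 lay below every 3-month brain, although the ranges overlapped. The log2 fold change of 28 against 3 months was -1.27 ± 0.22 (SE; adjusted p = 5.66e-06). Col3a1 overlaps another gene on the same strand over 141 of its 9816 exon bases, so its counts are less certain.

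Col1a2 encodes the single alpha 2 chain of type I collagen (ENSMUSG00000029661, chr6:4504814-4541544). Its lowest, median and highest values were 8.96, 13.5 and 24.0 CPM at 3 months, 6.05, 9.38 and 13.6 at 9 months, 6.68, 9.56 and 21.6 at 15 months, 5.39, 8.68 and 30.8 at 24 months and 5.43, 9.12 and 16.7 at 28 months. Of the 28-month brains, 17 of 18 were below the 3-month median and 8 below the whole 3-month range. The log2 fold change was -0.78 ± 0.16 (adjusted p = 0.000152). Col1a1, whose product fills the other 2 places in the type I trimer, went from 7.60, 12.0 and 18.9 CPM at 3 months to 3.10, 7.53 and 13.0 at 28 months. Here 9 of 18 old brains were below every young one, with a log2 fold change of -0.65 ± 0.13 (adjusted p = 8.96e-05).

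**Figure D1:**
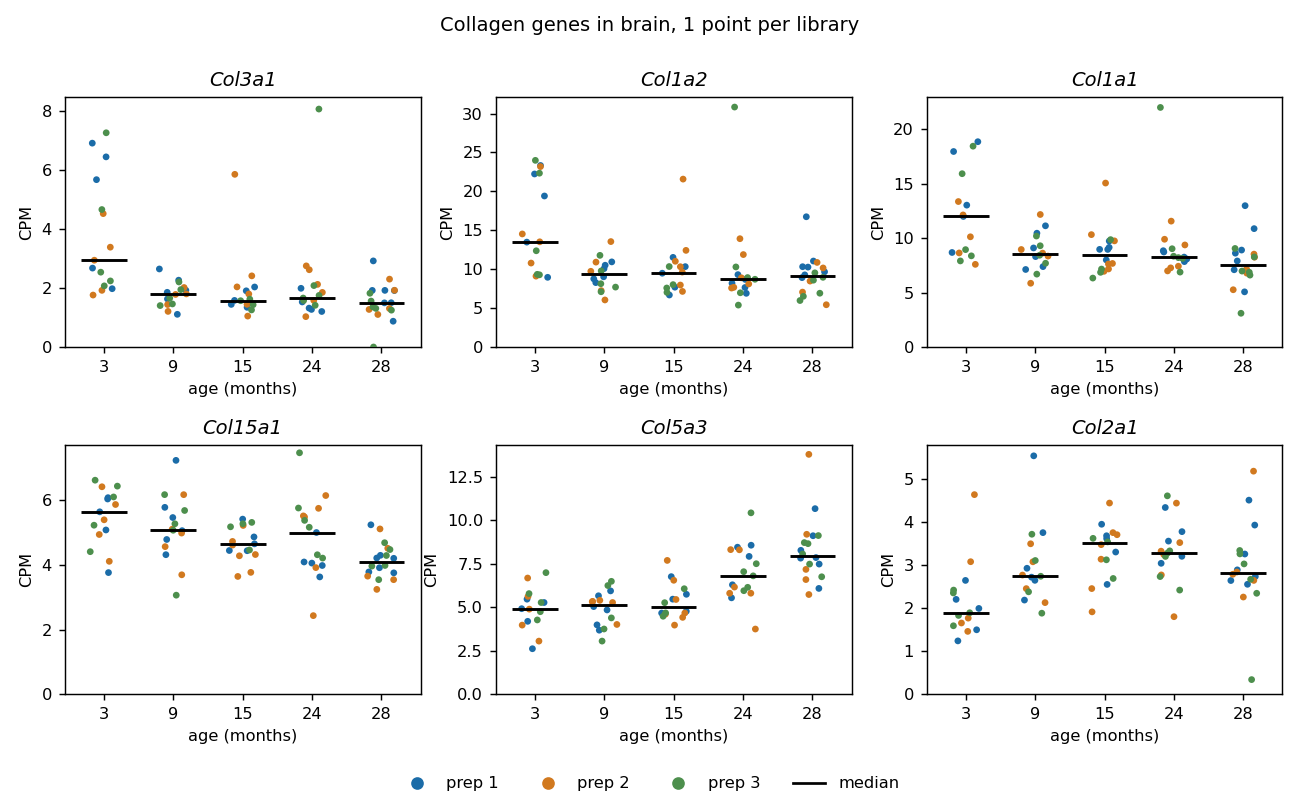
Level in CPM (linear axis) of 6 collagen genes in each brain library by age in months, with points coloured by prep and a line at the median of each age. Col3a1, Col1a2 and Col1a1 are spread widely at 3 months and sit low from 9 months on apart from single libraries such as replicate 9 of 24 months, whereas Col5a3 climbs at 24 and 28 months.

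At 9 months Col3a1 and Col1a2 were called lower, though not without the libraries richest in a choroid plexus transcript. Between 9 and 3 months 2 of 43 members were called, both lower, against 0.315% of all genes: Col3a1 with a log2 fold change of -1.10 ± 0.23 (adjusted p = 0.00729) and Col1a2 with -0.75 ± 0.17 (adjusted p = 0.0172). Col1a1 stood at -0.47 ± 0.14 (adjusted p = 0.131). All 16 brains of 9 months were below the 3-month median of Col3a1. Neither call held without the 7 brain libraries above 1000 CPM of Ttr, a choroid plexus transcript: Col3a1 then gave -0.89 ± 0.22 (adjusted p = 0.0514) and Col1a2 -0.61 ± 0.17 (adjusted p = 0.127), and at 15 months 1 member was called in place of 3. The comparisons against 3 months share the 3-month libraries, so their values are given side by side. Between 15 and 3 months 3 members were called against 0.871% of all genes (Col3a1 -0.98 ± 0.23, Col1a2 -0.66 ± 0.17 and Col2a1 0.61 ± 0.15), and between 24 and 3 months 5 against 10.1% of all genes, 3 higher and 2 lower. The last count was 8 without the library least like the others, and 0 in each of preps 2 and 3.

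Between 24 and 15 months no member was called with edgeR, against 0.732% of all genes, while 4 had an unadjusted p under 0.05, DESeq2 called 1 and limma with sample weights 2. Between 28 and 24 months Col20a1 alone was called, against 1.09% of all genes. That call was lost with a looser filter on low counts (-0.27, adjusted p = 0.0602), with a score of circadian clock genes as a further term (the clock gene score), without the high-Ttr libraries and in each single prep. Over all 5 ages 11 members differed somewhere, against 20.6% of all genes.

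Within the 3-month group the brains formed no tight cluster. Col3a1 was between 4.53 and 7.28 CPM in replicates 4, 5, 8, 10, 11 and 15 and between 1.76 and 3.39 CPM in the other 9, and the replicates with high Col3a1 also had the highest Col1a2, from 19.4 to 24.0 CPM against at most 14.5 CPM in the rest. Of these, replicates 4, 5 and 15 were the 3-month brains above 1000 CPM of Ttr, at 1255, 5914 and 2528 CPM. The highest values of Col3a1, Col1a1 and Col1a2 in any brain were those of replicate 9 of 24 months at 8.08, 22.0 and 30.8 CPM. Of the markers of brain fibroblasts (10 genes, all tested) 0 rose and 1 fell between 3 and 28 months, and their sum had medians of 105 CPM at 3 months (range 41.6 to 166) and 94.1 CPM at 28 months (range 57.4 to 169), with no marker at 0. Their sum was highest in the same 24-month replicate 9, at 236 CPM. Mural cell markers (0 of 10 called) summed to medians of 295 and 298 CPM and endothelial markers (2 higher and 3 lower of 8) to 211 and 199 CPM. These counts stand beside the 28.3% of all brain genes called. Of 7 pituitary markers 2 were high enough to test and both were lower at 28 months, Gh (growth hormone) by a log2 fold change of -6.13 and Pomc by -1.87. Their sum had medians of 1.18 CPM at 3 months (range 0.789 to 660) and 1.15 CPM at 28 months (range 0.586 to 9.99), Lhb was at 0 throughout, and the highest value was that of replicate 5 of 3 months, one of the brains with high Col3a1. Without that replicate the calls of Col3a1, Col1a1 and Col1a2 were kept. The part of the amount of meninges, vessel or pituitary in a sample was not tested.

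Of the remaining brain members, Col5a3, the alpha 3 chain of type V collagen, rose: its lowest, median and highest values were 2.63, 4.93 and 7.00 CPM at 3 months, 3.07, 5.17 and 6.50 at 9 months, 3.99, 5.03 and 7.71 at 15 months, 3.76, 6.82 and 10.4 at 24 months and 5.75, 7.97 and 13.8 at 28 months. All 18 of the oldest brains were above the 3-month median and 14 were above every 3-month brain. The fitted change on the log2 scale was 0.74 ± 0.11 (adjusted p = 1.8e-07). The other type V chains did not pass the test: Col5a1 gave -0.04 ± 0.20 and Col5a2 -0.12 ± 0.11.

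Col2a1, the fibrillar collagen of cartilage, was higher by 0.47 ± 0.14 (adjusted p = 0.00956), from a median of 1.89 CPM (range 1.24 to 4.63) at 3 months to 2.81 CPM (range 0.345 to 5.17) at 28 months. Its median was 2.75 CPM at 9 months, 3.50 at 15 months and 3.28 at 24 months. It thus stood lowest at 3 months, and 1 of 18 old brains was below the young median. Col11a1, a minor fibrillar chain that nucleates fibrils, fell by 0.37 ± 0.14 (adjusted p = 0.0326). Its median went from 16.6 CPM (range 11.7 to 23.2) to 13.6 CPM (range 2.41 to 22.1).

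Of the type IV chains, Col4a2 fell by 0.34 ± 0.10 (adjusted p = 0.00481), from 65.1, 91.7 and 117 CPM at 3 months to 28.1, 75.1 and 93.5 CPM at 28 months. With the clock gene score the change was -0.15 (adjusted p = 0.276) and the call was lost. The calls of Col11a1 (-0.13, adjusted p = 0.564) and Col22a1 (0.195, adjusted p = 0.165) were lost there as well. At 28 months 17 of 18 brains were below the 3-month median. Its partner Col4a1 (53.5, 75.2 and 89.4 CPM, then 16.8, 67.1 and 83.0 CPM) gave -0.19 ± 0.10 (adjusted p = 0.157), which did not pass. The lowest 28-month values of both chains were 28.1 and 16.8 CPM, below the lowest 3-month values of 65.1 and 53.5 CPM. The 16.8 CPM of Col4a1 was that of replicate 15, the brain library that stood apart. Without that library Col4a2 gave -0.29 (adjusted p = 0.00575) and Col4a1 -0.12 (adjusted p = 0.254). The log2 ratio of Col4a1 to Col4a2 counts was -0.29 ± 0.08 (SD, n = 15) at 3 months and -0.16 ± 0.19 (n = 18) at 28 months, a difference of 0.13 (two-sided permutation test with 100000 resamples, p = 0.013, adjusted p = 0.0781 over 6 chain ratios). Without the brain library that stood apart the difference was 0.17 (adjusted p = 6e-05). None of the other 5 ratios, of Col1a1 to Col1a2 and Col6a1 to Col6a2 in both tissues and Col4a1 to Col4a2 in the liver, passed after adjustment.

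Among the other kinds, Col15a1, the multiplexin that links basement membrane to the fibrils outside it, fell from 3.77, 5.65 and 6.62 CPM at 3 months to 3.25, 4.10 and 5.24 CPM at 28 months (-0.41 ± 0.09, adjusted p = 0.000309), with all 18 old brains below the young median. Col20a1, a fibril-associated collagen, fell from 4.32, 5.07 and 7.09 CPM to 2.99, 3.83 and 5.59 CPM (-0.42 ± 0.07, adjusted p = 5.53e-06), and 15 of 18 old brains were below every young one. Col20a1 overlaps another gene on the same strand over 79 exon bases, so its counts are less certain. Type VI chains form beaded filaments between cells and fibrils. Col6a2 rose by 0.34 ± 0.13 (adjusted p = 0.0386; median 17.8 to 22.6 CPM), Col6a1 gave 0.34 ± 0.21 (adjusted p = 0.224; 55.8 to 63.2 CPM) and Col6a3 0.23 ± 0.16 (adjusted p = 0.261; 3.50 to 3.92 CPM). Col22a1, a fibril-associated collagen of tissue junctions, rose by 0.25 ± 0.09 (adjusted p = 0.036; median 2.47 to 2.93 CPM), and Col18a1 gave -0.12 ± 0.19 (adjusted p = 0.656; 5.58 to 5.07 CPM). The calls of Col11a1, Col22a1 and Col6a2 were lost when any of 5, 7 and 9 single libraries was left out, respectively, and the other 8 brain calls were kept without each of the 33 libraries of 3 and 28 months. In these fits the changes of the called members moved by less than 1.5 times. Among members not called, Col6a1 gave 0.22 without replicate 2 of 28 months and Col18a1 -0.002 without replicate 5 of 3 months. A looser filter on low counts also ended the calls of Col22a1 (0.24, adjusted p = 0.065) and Col6a2 (0.33, adjusted p = 0.0623), with changes close to those above.

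At 9, 15 and 24 months, in this order, the brain medians of Col1a1 were 8.53, 8.49 and 8.26 CPM, all nearer to the 28-month than to the 3-month median. Col4a1 had medians of 72.6, 68.3 and 74.9 CPM and Col4a2 of 91.0, 85.4 and 88.2 CPM, so that the lowest median of both chains was that of 28 months. The type VI chains gave 51.5, 57.6 and 69.4 CPM (Col6a1), 16.6, 19.4 and 22.1 CPM (Col6a2) and 3.54, 3.40 and 4.27 CPM (Col6a3), with a higher median at 24 than at 3 months for each. Col15a1 gave 5.09, 4.64 and 5.00 CPM and Col20a1 4.57, 4.40 and 4.64 CPM. Col18a1 had 5.21, 4.80 and 5.54 CPM, Col11a1 17.6, 12.6 and 14.1 CPM and Col22a1 2.83, 2.82 and 3.08 CPM. The type V chains Col5a1 and Col5a2 had 16.2, 22.6 and 19.6 CPM and 12.5, 13.7 and 13.0 CPM, after 20.9 and 13.7 CPM at 3 months and before 18.9 and 12.7 CPM at 28 months.

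**Figure D2:**
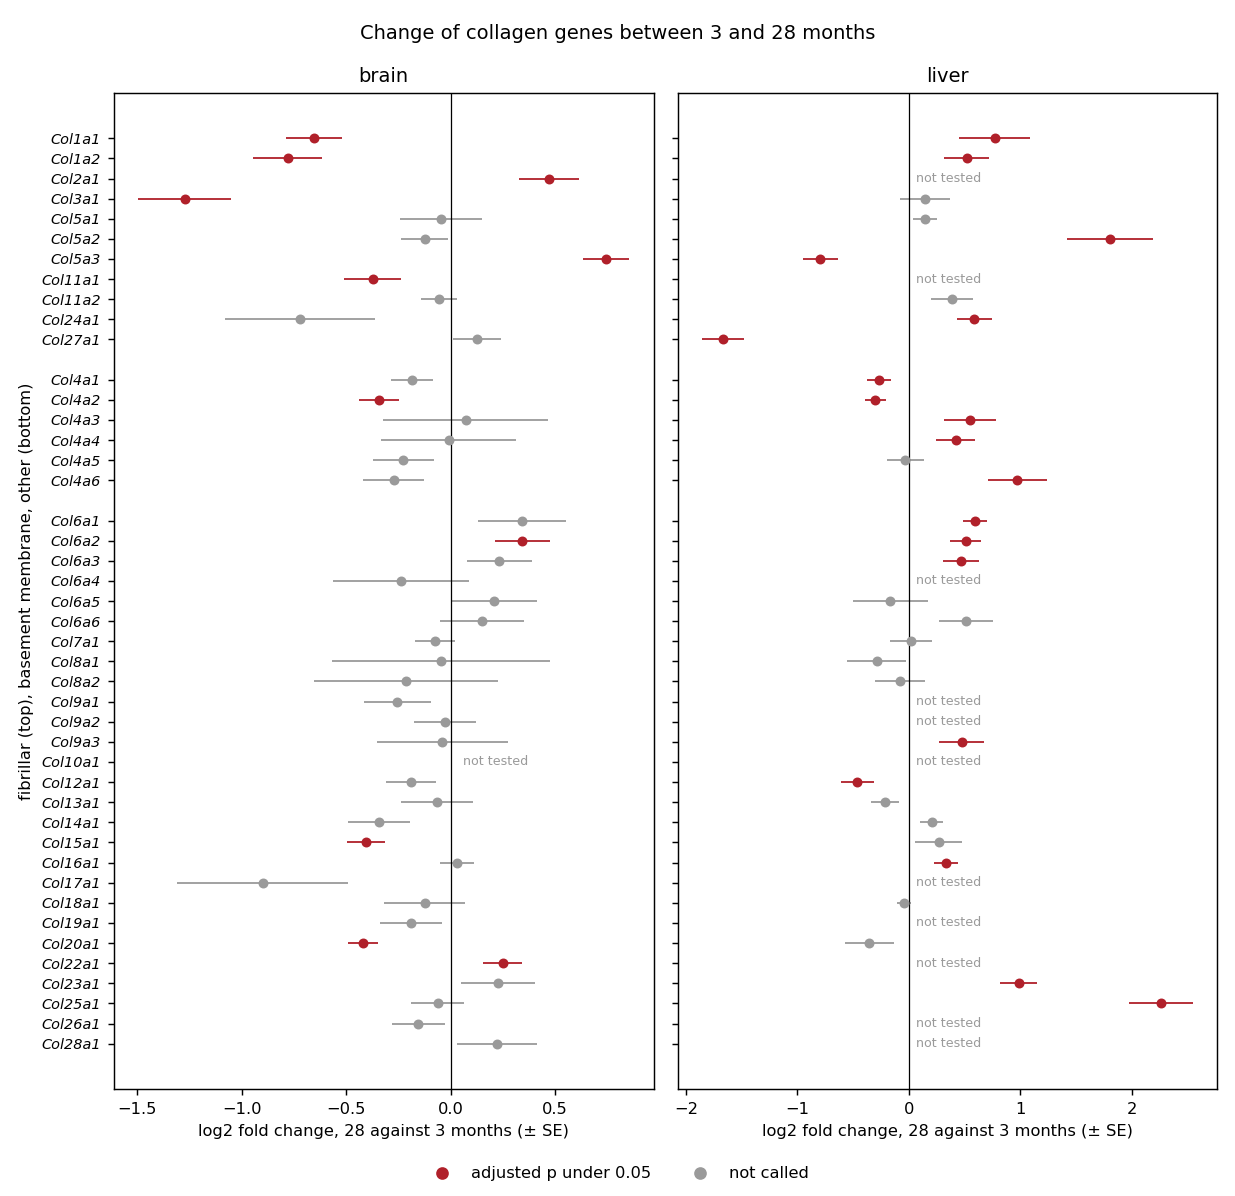
Log2 fold change of 28 against 3 months with its standard error for each tested collagen gene, brain and liver side by side and grouped by class, red where called and grey where not. In the brain Col3a1 lies lowest at -1.27 and Col5a3 highest at 0.74; in the liver Col25a1 lies highest at 2.26 and Col27a1 lowest at -1.67.

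Several brain members were high in the libraries richest in a choroid plexus transcript. Col8a1, a short-chain collagen of Descemet's and vascular membranes, was above 10 CPM in 7 brain libraries, and these were the 7 with the highest Ttr, the transthyretin that choroid plexus epithelium secretes. In them Ttr ran from 1255 to 5914 CPM, where the others had a median of 70.9 and a maximum of 505 CPM. They belonged to 3 months (3 libraries), 15 months (1), 24 months (1) and 28 months (2), and 0 to 9 months. Col8a1 was 10.8 to 41.3 CPM in the 7 and at most 4.49 CPM in the rest.

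The same 7 libraries were set apart, with no overlap, by Col8a2, the partner chain (12.4 to 43.6 CPM against at most 7.65), and Col9a3, a fibril-associated chain (30.5 to 110 CPM against at most 19.2). The type IV chains Col4a3 (1.76 to 10.4 CPM against at most 1.20) and Col4a4 (2.68 to 11.5 against at most 2.27) did the same, as did the transmembrane Col17a1 (0.887 to 3.17 against at most 0.689). Col18a1 was higher in them (6.94 to 18.1 CPM) but overlapped the rest (up to 14.8 CPM). None of these genes was called between 28 and 3 months in the brain, and 0 of the 10 choroid plexus markers was. Without these 7 libraries 9 of the 11 brain calls remained, with Col11a1 and Col6a2 lost and none gained. The changes of these 2 stayed near those in all libraries, at -0.34 (adjusted p = 0.0879) and 0.33 (adjusted p = 0.0761). Col3a1 then gave -1.07 (adjusted p = 0.00016), Col1a2 -0.64 (adjusted p = 0.00355) and Col1a1 -0.56 (adjusted p = 0.00213).

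**Figure D3:**
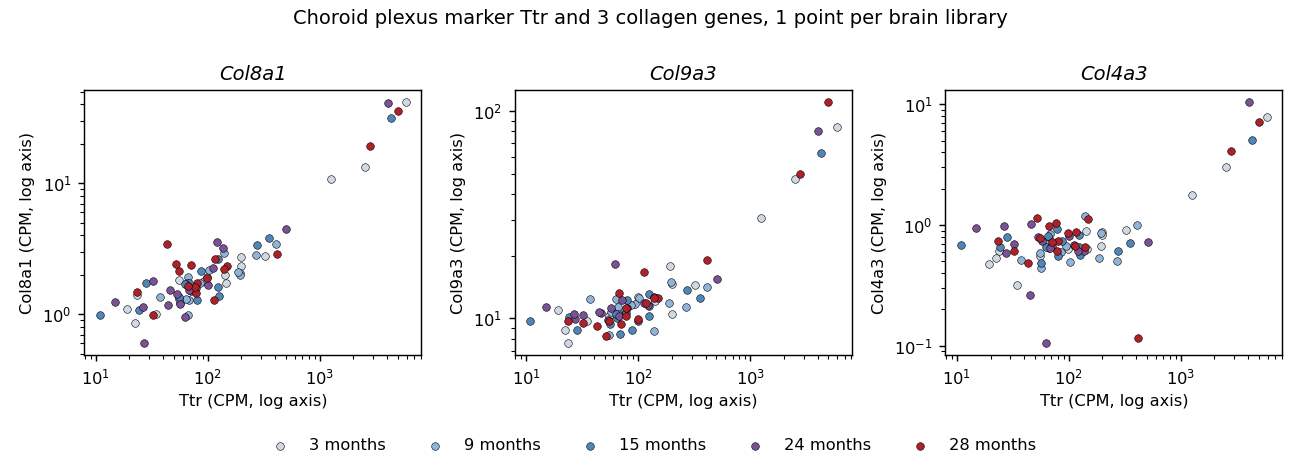
Level of Col8a1, Col9a3 and Col4a3 against the choroid plexus transcript Ttr in each brain library, all in CPM, coloured by age. The 7 libraries above 1000 CPM of Ttr carry more of all 3 collagens than every other library, and 3 of them are from 3-month brains.

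In the liver a large share of the collagen genes was called, as it was of genes at large, and most of the called members were higher. Between 28 and 3 months 19 of 33 tested members were called (57.6%), 14 higher and 5 lower, against 61.9% of all genes tested (31.9% higher, 30.0% lower). The median log2 fold change was 0.27 over the members and 0.01 over all genes. By class, 6 of 9 tested fibrillar chains (4 higher, 2 lower), 5 of 6 type IV chains (3 higher, 2 lower) and 8 of 18 others (7 higher, 1 lower) were called. The direction was the same in each prep alone for 18 of the 19, the exception being Col12a1 with 0.13 in prep 2. Here too the preps are parts of the fit that chose the members. Col25a1, Col27a1, Col5a2 and Col6a1 were called in all 3 preps.

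The fibrillar chains of the liver changed in both directions. Col5a2, the alpha 2 chain of type V collagen (ENSMUSG00000026042, chr1:45374321-45503282, minus strand), had lowest, median and highest values of 2.56, 3.65 and 10.7 CPM at 3 months, 2.55, 3.27 and 4.42 at 9 months, 2.64, 4.06 and 88.5 at 15 months, 4.07, 6.07 and 69.4 at 24 months and 5.26, 9.80 and 61.9 at 28 months. All 18 livers of 28 months were above the 3-month median and 8 were above the whole 3-month range. Single livers stood far out: replicate 1 at 15 months, replicate 10 at 24 months and replicate 10 at 28 months held those highest values. On the log2 scale it changed by 1.80 ± 0.39 (adjusted p = 4.27e-05), and by 1.42 without replicate 10 of 28 months.

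Col27a1, a fibrillar chain known from cartilage (ENSMUSG00000045672, chr4:63214004-63334991, plus strand), fell the furthest among liver members. Its values were 26.5, 41.9 and 56.6 CPM at 3 months, 23.4, 36.9 and 58.9 at 9 months, 8.16, 34.7 and 62.3 at 15 months, 9.59, 20.3 and 41.4 at 24 months and 4.37, 11.5 and 31.8 at 28 months. All 18 old livers were below the young median and 16 below every young liver. The log2 fold change was -1.67 ± 0.19 (adjusted p = 5.18e-12).

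Col5a3, which rose in the brain, fell in the liver. Its median was 45.7 CPM (range 19.7 to 68.8) at 3 months, 59.8 (43.9 to 75.4) at 9 months, 57.3 (38.5 to 81.9) at 15 months, 36.4 (15.7 to 55.3) at 24 months and 23.2 (9.42 to 69.3) at 28 months. It was thus highest at 9 and 15 months, and 16 of 18 old livers lay below the young median. The log2 fold change of 28 against 3 months was -0.79 ± 0.16 (adjusted p = 1.38e-05).

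**Figure D4:**
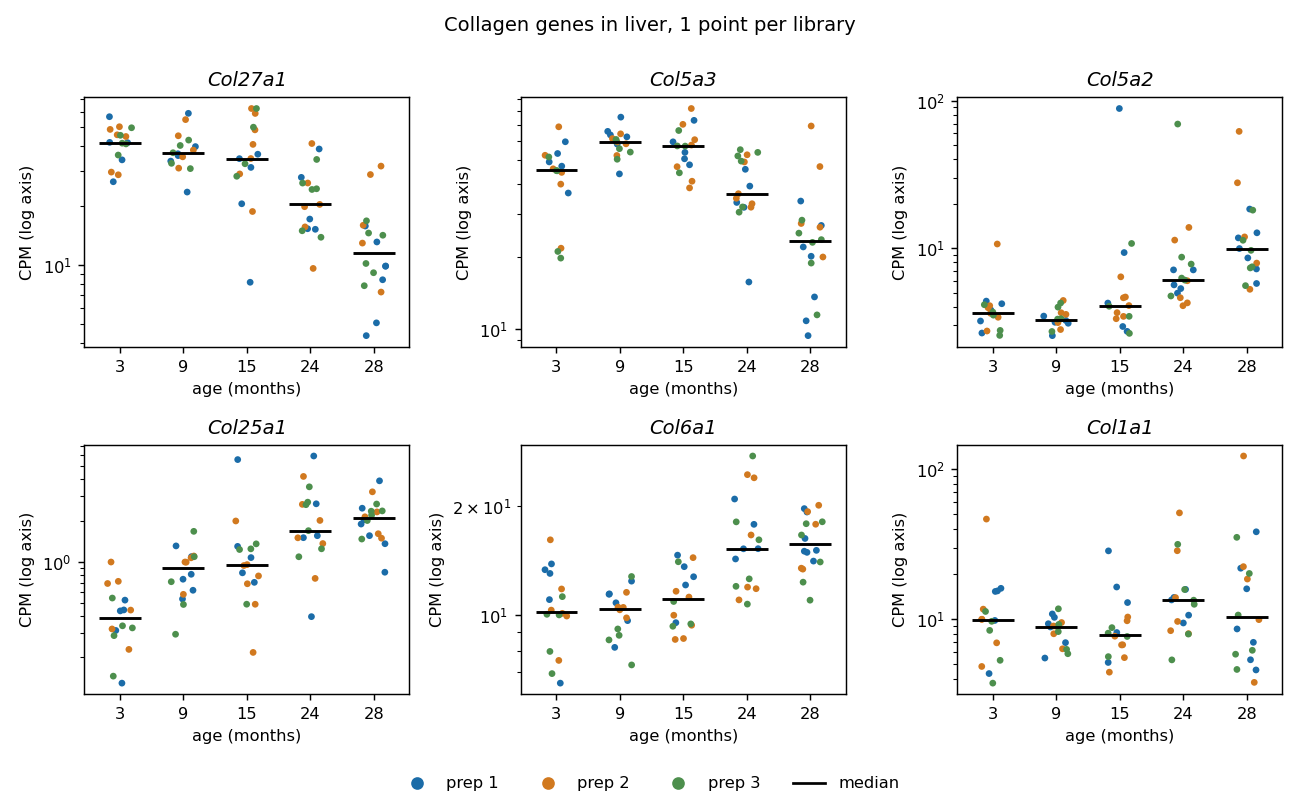
Level in CPM (logarithmic axis) of 6 collagen genes in each liver library by age in months, coloured by prep, with a line at the median of each age. Col27a1 falls through 24 and 28 months, Col5a2 and Col25a1 rise, and Col1a1 keeps its median while 1 liver of 28 months reaches 122 CPM.

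Type I collagen, the main scar protein of the liver, had similar medians in young and old livers and a few animals with high values. Col1a1 had lowest, median and highest values of 3.75, 9.89 and 46.5 CPM at 3 months, 5.51, 8.92 and 11.7 at 9 months, 4.44, 7.89 and 28.5 at 15 months, 5.36, 13.4 and 51.1 at 24 months and 3.79, 10.3 and 122 at 28 months. The medians of the youngest and oldest groups were close, 8 of 18 old livers were below the young median, and 1 was above the young range. The fitted change on the log2 scale was 0.77 ± 0.32 (adjusted p = 0.0313), but 0.30 (adjusted p = 0.379) without replicate 14 of 28 months and -0.01 (adjusted p = 0.975) when limma weighted libraries by their quality. The call was lost without any of 5 single libraries.

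Col1a2 gave 0.52 ± 0.20 (adjusted p = 0.021; median 16.4 CPM at 3 months and 17.5 CPM at 28 months), and 0.29 (adjusted p = 0.169) without the same replicate, in which it stood at 87.3 CPM. The call was also lost without replicate 1 of 28 months and with limma's library weights (0.10, adjusted p = 0.554). Col3a1 was not called (0.14 ± 0.22, adjusted p = 0.586): its medians were 42.2, 33.2, 32.1, 40.9 and 35.5 CPM over the 5 ages, with 158 CPM in that replicate. Col5a1, the alpha 1 chain of type V, was not called either (0.14 ± 0.11, adjusted p = 0.236; medians 11.2 and 11.3 CPM), but was with the clock gene score as a term (0.27, adjusted p = 0.0463). This liver held the highest value of any liver for 7 of the 33 members (Col12a1, Col15a1, Col1a1, Col1a2, Col3a1, Col5a1 and Col8a1). The summed markers of activated myofibroblasts were also highest there among the livers of 28 months (222 CPM, median 69.3) and those of bile duct cells (86.9 CPM, median 15.7). Their part in the result was not tested. Col24a1, a fibrillar chain of developing bone, rose by 0.59 ± 0.15 (adjusted p = 0.000636) at a low level, with medians of 0.286 and 0.413 CPM.

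Of the type IV chains of the liver, 2 were called lower and 3 higher, and most of these calls were close to the threshold. The ubiquitous chains fell: Col4a2 by 0.30 ± 0.09 (adjusted p = 0.00365; 31.1, 38.5 and 63.1 CPM at 3 months, 21.7, 31.6 and 51.1 CPM at 28 months) and Col4a1 by 0.27 ± 0.11 (adjusted p = 0.0293; 40.8, 53.0 and 89.8 CPM, then 26.2, 39.0 and 81.4 CPM). For each chain 9 of 18 old livers were below all young ones. The Col4a1 call was lost without any of 6 single libraries, with an adjusted p of up to 0.116 without replicate 12 of 3 months. The tissue-restricted chains known from the kidney's filter, Col4a3 and Col4a4, rose by 0.55 ± 0.24 (adjusted p = 0.0374) and 0.42 ± 0.17 (adjusted p = 0.0306), and Col4a6 rose by 0.97 ± 0.26 (adjusted p = 0.00102). These 3 were low throughout, with 28-month medians of 0.528, 0.735 and 0.284 CPM. The Col4a3 call was lost without any of 12 single libraries and the Col4a4 call without any of 5. With the clock gene score as a term none of Col4a1 (-0.11), Col4a2 (-0.19), Col4a3 (0.38) and Col4a4 (0.32) passed, with adjusted p of 0.442, 0.118, 0.236 and 0.172. Col4a3 overlaps a gene on the opposite strand over 563 exon bases, and whether the counting used strand is not given in the sources used here. Col4a5 was lower at 9 months (-0.64 ± 0.18) and 15 months (-0.55 ± 0.18) than at 3 months and not called at 28 months (-0.03 ± 0.17).

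Of the 5 type VI chains tested in the liver, 3 rose and 0 fell, a share near the 61.9% of all liver genes called. Col6a1 went from 6.52, 10.2 and 16.1 CPM at 3 months over medians of 10.4, 11.1 and 15.3 CPM to 11.0, 15.7 and 20.1 CPM at 28 months (0.59 ± 0.11, adjusted p = 1.64e-06). Every old liver was above the young median and 9 were above all young livers. Col6a2 (median 5.78 to 7.02 CPM) rose by 0.51 ± 0.14 (adjusted p = 0.00134) and Col6a3 (8.86 to 12.4 CPM) by 0.47 ± 0.16 (adjusted p = 0.00846). With libraries weighted by quality in limma Col6a3 gave 0.28 (adjusted p = 0.0672). Col6a6 gave 0.51 ± 0.24 (adjusted p = 0.0598), and Col6a5, a low chain, -0.17 ± 0.34 (adjusted p = 0.684). Limma's library weights called both, Col6a6 at 0.59 (adjusted p = 0.0116) and Col6a5 at -1.26 (adjusted p = 0.000359), and Col6a5 was called at -0.78 (adjusted p = 0.0152) without the 2 liver libraries least like the others.

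The largest rise among liver members was that of Col25a1 (ENSMUSG00000058897, chr3:130131501-130599877), the transmembrane collagen that was among the brain's more abundant members. In the liver its lowest, median and highest values were 0.130, 0.389 and 0.996 CPM at 3 months, 0.295, 0.901 and 1.67 at 9 months, 0.218, 0.946 and 5.58 at 15 months, 0.397, 1.69 and 5.93 at 24 months and 0.839, 2.08 and 3.91 at 28 months. Of the old livers 17 of 18 were above every young one. On the log2 scale it changed by 2.26 ± 0.29 (adjusted p = 2.56e-10), and Col25a1 was called at each earlier age against 3 months as well.

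Col23a1, another transmembrane collagen, rose by 0.98 ± 0.16 (adjusted p = 3.17e-07; median 0.573 to 1.00 CPM), with 15 of 18 old livers above all young ones. Among the fibril-associated chains, Col16a1 (0.33 ± 0.11, adjusted p = 0.00581; 3.41 to 4.19 CPM) and Col9a3 (0.47 ± 0.20, adjusted p = 0.0355; 0.248 to 0.387 CPM) rose and Col12a1 fell (-0.46 ± 0.15, adjusted p = 0.00479; 2.14 to 1.68 CPM). The Col9a3 call was lost without any of 11 single libraries, that of Col16a1 with limma's library weights (0.21, adjusted p = 0.0571) and that of Col12a1 with the clock gene score (-0.20, adjusted p = 0.312). Col14a1, abundant in the liver, gave 0.20 ± 0.11 (adjusted p = 0.0914; 65.5 to 67.5 CPM), and 0.31 (adjusted p = 0.0247) with the clock gene score.

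At 9, 15 and 24 months, in this order, the liver medians of Col1a2 were 12.7, 12.0 and 16.7 CPM and those of Col5a1 10.4, 9.95 and 13.0 CPM. Those of Col4a1 were 43.1, 42.5 and 46.5 CPM and those of Col4a2 33.8, 29.9 and 33.8 CPM, all below the 3-month median. Col6a2 gave 5.56, 6.04 and 8.46 CPM and Col6a3 9.21, 10.2 and 13.2 CPM, with the highest median of either chain at 24 months. Col23a1 had 0.779, 0.723 and 1.04 CPM, Col16a1 3.47, 3.46 and 4.25 CPM and Col12a1 1.79, 1.68 and 1.88 CPM.

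The multiplexins were not called between the ends. Col18a1 kept medians of 1011, 1041, 937, 1058 and 998 CPM over the 5 ages, with a log2 fold change of -0.04 ± 0.06 (adjusted p = 0.589). Col15a1 had medians of 6.26, 5.41, 6.75, 10.3 and 6.64 CPM. Its log2 fold change was 0.65 ± 0.21 (adjusted p = 0.00811) at 24 months and 0.27 ± 0.21 (adjusted p = 0.265) at 28 months, and -0.07 (adjusted p = 0.762) without replicate 14 of 28 months, where it reached 34.5 CPM. With the clock gene score as a term it was called at 28 months, at 0.66 (adjusted p = 0.013).

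At the earlier ages the liver members were called in these numbers. Against 3 months, 4 of 33 members were called at 9 months (12.1% against 4.69% of all genes, though 1 with limma's library weights and 0 in each single prep), 7 at 15 months (21.2% against 7.32%) and 17 at 24 months (51.5% against 49.0% of all genes). At 24 months 15 members were higher and 2 lower, where 25.0% of all genes were higher and 24.0% lower. Between 24 and 15 months, comparing neither the youngest nor the oldest group, 16 of 33 members were called, 14 higher and 2 lower, against 36.0% of all genes (21.6% higher, 14.4% lower). The 2 lower ones were Col27a1 (-0.69 ± 0.19, adjusted p = 0.00279) and Col5a3 (-0.49 ± 0.16, adjusted p = 0.0123). Those higher included Col6a1 (0.57 ± 0.11, adjusted p = 4.23e-05), Col6a2, Col6a3, Col1a2 (0.62 ± 0.21, adjusted p = 0.0146) and Col15a1 (0.64 ± 0.21, adjusted p = 0.0139). Between 28 and 24 months 2 members were called, Col27a1 (-0.80 ± 0.18, adjusted p = 0.00116) and Col5a3 (-0.66 ± 0.16, adjusted p = 0.00168), both lower, against 15.3% of all genes. With the clock gene score as a term neither passed, at -0.44 (adjusted p = 0.233) and -0.35 (adjusted p = 0.255). Over all 5 ages 25 members differed, against 71.5% of all genes.

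**Figure D5:**
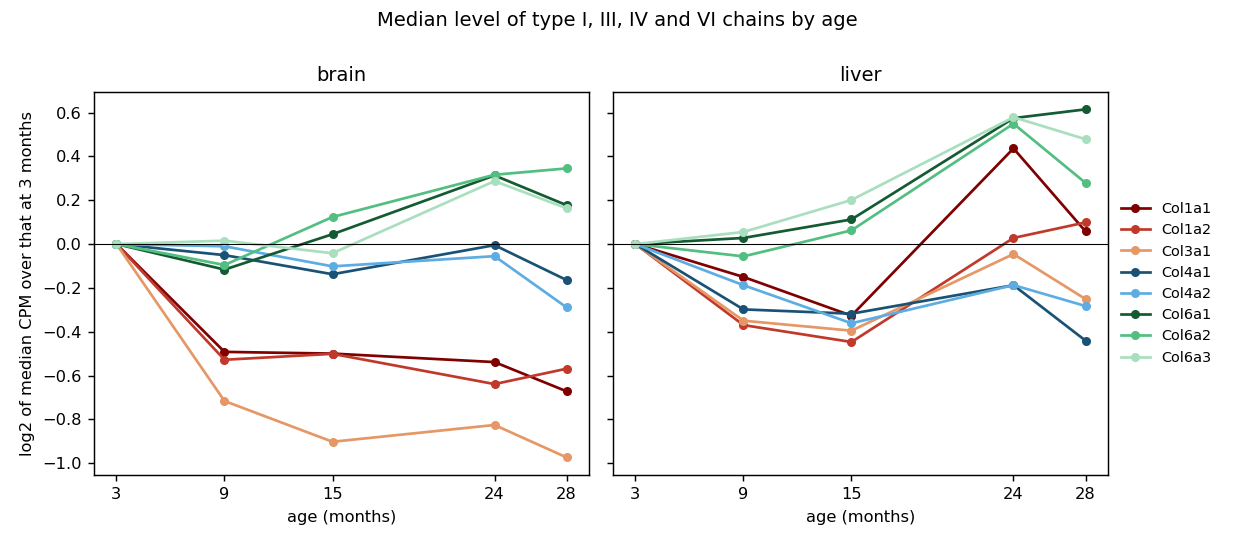
Median CPM at each age relative to the 3-month median, on a log2 scale, for 8 chains of types I, III, IV and VI in the brain and the liver. In the brain the medians of Col3a1, Col1a2 and Col1a1 lie below the 3-month median from 9 months on; in the liver Col6a1, Col6a2 and Col6a3 step up between 15 and 24 months.

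Liver cell markers were called over the same ages, read against 31.9% of all liver genes higher and 30.0% lower. Of the macrophage markers 9 of 9 were higher at 28 months, with summed medians of 349 CPM (range 272 to 1007) at 3 months and 888 CPM (450 to 4242) at 28 months. Of the stellate cell markers 9 of 12 rose and 0 fell, with sums of 312 to 411 CPM at 3 months and 422 to 543 CPM at 28 months, which did not overlap. Myofibroblast markers gave 4 higher and 0 lower of 7 tested (medians 63.9 and 69.3 CPM; ranges 50.5 to 98.3 and 50.1 to 222), bile duct cell markers 4 and 0 of 6 (medians 13.4 and 15.7 CPM) and portal fibroblast markers 3 and 0 of 6 (12.7 and 17.4 CPM). Acta2, the actin of activated stellate cells, was not called (0.03 ± 0.19, adjusted p = 0.896). No marker of these 5 lists was at 0, and the part of cell numbers in the collagen changes was not tested.

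The tissues were compared directly by an interaction of tissue and age over both sets of libraries. Of the 33 members tested in both, 14 changed differently between 3 and 28 months in liver and brain, against 49.2% of all genes. The fibrillar type I and III chains were called lower in the brain, and the liver change exceeded that of the brain by 1.43 ± 0.32 for Col3a1 (adjusted p = 8.38e-05), 1.45 ± 0.35 for Col1a1 (adjusted p = 0.000275) and 1.33 ± 0.26 for Col1a2 (adjusted p = 9.13e-06), on the log2 scale. Col5a3 and Col27a1 differed the other way, by -1.50 ± 0.20 (adjusted p = 1.32e-10) and -1.75 ± 0.22 (adjusted p = 2.41e-11). The liver side of the first 3 rests in part on replicate 14 of 28 months, without which the liver changes were -0.053, 0.30 and 0.29, and the interaction was not refitted without it. For Col4a2, which was called lower in both tissues, the difference was 0.07 ± 0.14 (adjusted p = 0.688).

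For 3 members brain and liver values were compared across mice, and no relation was detectable. With the age and prep means subtracted, brain and liver values of the same 82 mice gave Pearson r = -0.01 for Col1a1 (Spearman rho -0.01), 0.10 for Col3a1 (rho 0.03) and -0.02 for Col4a1 (rho -0.01), each with a permutation test adjusted p of 0.955 (Spearman 0.946) over 3 relations. Without the 2 mice farthest from the median r was -0.07, 0.00 and -0.13. Within preps r ran from -0.30 to 0.18 for Col1a1, from -0.03 to 0.26 for Col3a1 and from -0.32 to 0.21 for Col4a1.

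Pairs of chains were compared across the libraries of a tissue. Over 8 relations, tested by permutation, Col1a1 with Col1a2 gave r = 0.86 (rho 0.82) over 82 brain libraries and 0.97 (rho 0.93) over 83 liver libraries. Col4a1 with Col4a2 gave 0.93 (rho 0.91) and 0.93 (rho 0.91), and Col1a1 with Col3a1 0.78 (rho 0.70) and 0.95 (rho 0.94). The type I and type IV chains Col1a1 and Col4a1 were less alike in the brain at 0.37 (rho 0.25; adjusted p = 0.00474 for r and 0.0208 for rho) and gave 0.78 (rho 0.74) in the liver. The other 7 relations had a permutation p of 1e-05, the smallest that 100000 resamples can give, adjusted to 1.14e-05. Without the 2 farthest libraries the brain values were 0.85, 0.89, 0.73 and 0.25 and the liver values 0.95, 0.92, 0.94 and 0.72, in the order named. Within preps the brain relation of Col1a1 with Col4a1 ran from 0.28 to 0.42, and the other 7 relations were at least 0.63. Libraries share depth and tissue composition, and these are descriptions of libraries.

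Genes that make, trim, bind and degrade collagen were taken from lists. In the brain, of 20 tested genes for synthesis and folding 1 rose and 4 fell, where 28.3% of all genes were called. Serpinh1, the collagen chaperone HSP47, fell by 0.74 ± 0.10 (adjusted p = 3.98e-09), from 22.0 ± 5.25 CPM (SD, n = 15) to 13.1 ± 2.81 CPM (n = 18). The prolyl hydroxylase subunits P4ha3 and P4ha1, which stabilise the helix, fell by 0.52 ± 0.08 and 0.44 ± 0.08 (adjusted p = 2.89e-07 and 3.3e-05). In the liver 9 of 19 rose and 5 fell, where 61.9% of all genes were called. Among those that rose were Creb3l1, a transcription factor of the secretory pathway (0.94 ± 0.24), the chaperone Fkbp10 (0.88 ± 0.14) and the lysyl hydroxylase Plod2 (0.63 ± 0.16). Without replicate 14 of 28 months, however, Creb3l1 gave 0.25 (adjusted p = 0.0864), and with limma's library weights 0.22 (adjusted p = 0.182). Serpinh1 fell there too, by 0.48 ± 0.13 (adjusted p = 0.00134).

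Of the processing and crosslinking genes, 1 rose and 3 fell of 14 tested in the brain, and 6 rose and 1 fell of 12 in the liver. These counts stand beside 28.3% of all brain genes and 61.9% of all liver genes called. In the brain Loxl1, a crosslinking lysyl oxidase, fell by 0.40 ± 0.16 (adjusted p = 0.0434) and the procollagen protease Adamts2 by 0.40 ± 0.10 (adjusted p = 0.00142). The Loxl1 call was lost without any of 17 of the 33 single libraries, with an adjusted p of up to 0.131, and also without the high-Ttr libraries (-0.34, adjusted p = 0.0729) and with the clock gene score (-0.45, adjusted p = 0.0509). Pcolce2, an enhancer of procollagen cleavage, rose in the brain by 0.40 ± 0.14 and in the liver by 1.06 ± 0.19 (adjusted p = 0.0202 and 2.26e-06), the brain call being lost without replicate 12 of 28 months (adjusted p = 0.0541). Adamts14 (0.73 ± 0.15) and Loxl3 (0.63 ± 0.11) rose in the liver.

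Of the breakdown genes 10 of 13 rose and 1 fell in the liver, where 61.9% of all genes were called, and 2 of 12 rose and 1 fell in the brain, where 28.3% were. In the liver the gelatinase Mmp9 rose by 2.07 ± 0.26 (1.02 ± 0.34 to 4.71 ± 2.84 CPM; adjusted p = 2.65e-10) and the macrophage elastase Mmp12 by 2.06 ± 0.44 (adjusted p = 4.33e-05), and the membrane-bound Mmp15 fell by 1.07 ± 0.11 (adjusted p = 1.16e-13). Mmp12 gave 3.11 without replicate 12 of 3 months. In the brain Mmp9 rose by 0.39 ± 0.08 and Mmp15 fell by 0.27 ± 0.08.

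Of the collagen receptors 1 rose and 4 fell of 10 in the brain, and 8 rose and 1 fell of 9 in the liver. The leukocyte receptor Lair1 rose in both, by 0.55 ± 0.07 in the brain and 1.82 ± 0.23 in the liver (adjusted p = 7.35e-10 and 4.06e-10), and the integrin subunit Itga10 fell in both, by 0.57 ± 0.12 and 1.21 ± 0.16. Of the fibrogenic ligands and receptors 1 rose and 1 fell of 17 in the brain (Tgfb1 0.25 ± 0.07, and Pdgfc -0.30 ± 0.09, not called with the clock gene score at -0.16) and 11 rose and 1 fell of 17 in the liver. There Ccn2, a matricellular target of TGF-beta signalling, rose by 1.55 ± 0.26, the ligand Pdgfb by 1.43 ± 0.19 and the receptor Pdgfra, a stellate cell gene, by 1.08 ± 0.10. These shares stand beside 28.3% of all brain genes and 61.9% of all liver genes called.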

How the data were processed

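For each tissue the authors deposited a table of raw counts (whole numbers) with 55471 gene identifiers, of which 55144 matched a symbol and 0 columns were left unused. Per the submitters' processing notes, the tools were cutadapt 2.8, HISAT2 2.1.0, SAMtools 1.9 and featureCounts of Subread 2.0.1, with the builds GRCm38.p6 and mm10. Per the labels, the libraries were stranded and polyA-enriched, and the field for the batch gives prep 1 to 3. The strand setting of the counting is not given in the sources used here.

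Counts were tested in R 4.3.3 with edgeR 4.0.16 (filterByExpr by age, TMM, quasi-likelihood F test) per tissue, with age and prep as terms, over all libraries of the tissue. P-values were adjusted over all genes of a comparison (Benjamini-Hochberg) and called under 0.05. Standard errors were taken from the fold change and its F statistic. P-values measure the spread between mice. Brain and liver of a mouse share age and number in the labels. Deviations of the 82 brain and liver pairs correlated by 0.04 on average over genes, and the interaction with mouse as a replicate block called 14 members, as many as without it. Chain ratios used log2 of counts plus 0.5. The steps were tested on simulated data. Alternatives used DESeq2 1.42.0 and limma 3.58.1.

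Members and lists were chosen with earlier results of these data known. Values per age are given for 12 members fixed by name and for called members with a mean of at least 1 CPM, up to 8 per direction, with other members by their changes. From each list of other genes the text names up to 3 called genes with the largest change and a mean of at least 1 CPM. Acta2 and the liver's Serpinh1 were named after their values were seen.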

Additional observations from a re-analysis of the deposited data

Results flagged for a closer look

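For 14 of the 33 collagen genes tested the change from 3 to 28 months differed between liver and brain in the interaction test (edgeR, adjusted over all 14035 genes tested in both tissues). Of all these genes 49.2% were called, so the count of members is not above that of genes at large. The differences below are the liver log2 fold change minus that of the brain.

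The liver change was higher for Col25a1 by 2.34, from -0.06 in the brain to 2.26 in the liver, for Col5a2 by 1.96 (-0.12 and 1.80), for Col1a1 by 1.45 (-0.65 and 0.77), for Col3a1 by 1.43 (-1.27 and 0.14), for Col24a1 by 1.35 (-0.72 and 0.59), for Col1a2 by 1.33 (-0.78 and 0.52) and for Col4a6 by 1.30 (-0.27 and 0.97). Smaller differences in the same direction were 0.79 for Col23a1, 0.71 for Col15a1, 0.56 for Col14a1, 0.47 for Col11a2 and 0.34 for Col16a1. The liver change was lower by 1.75 for Col27a1 (difference -1.75; 0.13 and -1.67) and by 1.50 for Col5a3 (difference -1.50; 0.74 and -0.79). The liver changes of 4 of these genes rest in part on 1 liver of 28 months, replicate 14. Without it the liver change was 0.30 for Col1a1, 0.29 for Col1a2, -0.053 for Col3a1 and -0.065 for Col15a1; the interaction test was not repeated without it.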

How the results depend on the processing

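Between 28 and 3 months the counts of called members were within 1.5 times the reported 11 (brain) and 19 (liver) under another scaling, test, filter on low counts, a clock gene score (circadian clock genes) as a term and without the least alike libraries. Leaving out each library in turn gave 9 to 12 in the brain and 16 to 21 in the liver. Single preps gave less: in the brain 8, 2 and 2, in the liver 9, 5 and 9, and in the interaction 9, 5 and 9 for preps 1, 2 and 3. Single preps hold about 5 libraries per age.

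Other brain counts moved as follows. For 9 against 3 months (2 reported) each single prep and the set without libraries above 1000 CPM of Ttr (chosen after seeing the data, as was leaving out the 2 least alike libraries) gave 0, and limma voom with quality weights 6. For 15 against 3 months (3 reported) preps 2 and 3 gave 0, voom 5 and the set without high Ttr 1. For 24 against 3 months (5 reported) preps 2 and 3 gave 0, voom 9, and DESeq2, the clock gene score and leaving out the least alike library 8 each. For 24 against 15 months (0 reported) DESeq2, the set without the least alike library and that without the 2 least alike gave 1, and voom 2. For 28 against 24 months (1 reported) the filter of 10 counts, each single prep and the set without high Ttr gave 0, voom 3, and leaving out the 1 or 2 least alike libraries 2.

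In the liver, 9 against 3 months (4 reported) gave 0 in each single prep and 1 with voom, and 15 against 3 months (7 reported) 0 in each single prep. For 24 against 3 months (17 reported) preps 1 and 2 gave 2 each, and for 24 against 15 months (16 reported) preps 1, 2 and 3 gave 0, 4 and 1. For 28 against 24 months (2 reported) the clock gene score and prep 2 gave 0, the filter of 10 counts and prep 1 gave 4, and voom 5.

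Numbers name different mice at different ages. Taken all the same as a replicate block, they gave 10 members in the brain and 22 in the liver for 28 against 3 months, 20 in the liver for 24 against 15 months, and 0 in the brain for 28 against 24 months. Libraries with the same number correlated by 0.02 in the brain and -0.01 in the liver on average, and 8 of 82 and 1 of 83 libraries were most like their own number.

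Directions turned in 21 of 835 values of single genes, mostly of genes that were not called. With the clock gene score 8 of the 11 brain and 14 of the 19 liver calls were kept, and 3 liver calls were gained (Col5a1, Col14a1 and Col15a1). With that score, brain Col18a1, Col4a1, Col5a1 and Col5a2 gave 0.063, 0.064, 0.03 and 0.062. Brain Col5a1 gave 0.68 in prep 1, 0.019 without the least alike library, 0.019 without the 2 least alike and -0.114 to 0.021 with 1 library left out. In prep 3 brain Col18a1 gave 0.093, the called Loxl1 0.062, the called Mmp15 0.044 and liver Col18a1 0.078. The called liver Col12a1 gave 0.13 in prep 2. Liver Col15a1, Col3a1 and Col5a1 gave -0.34, -0.10 and -0.099 in prep 1. With 1 library left out Col15a1 ran from -0.065 to 0.367 and Col3a1 from -0.053 to 0.329. With voom liver Col1a1, Col3a1 and Col5a1 gave -0.01, -0.34 and -0.041.

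The brain ratio of Col1a1 to Col1a2 turned to -0.054 in prep 1 and that of Col6a1 to Col6a2 to 0.07 and 0.079 in preps 2 and 3. In the liver Col1a1 to Col1a2 gave -0.25 and Col4a1 to Col4a2 -0.091 in prep 1. The brain ratio of Col4a1 to Col4a2 passed without the least alike library (0.17). Correlations of brain with liver were 0.18, -0.30 and 0.16 in preps 1, 2 and 3 for Col1a1, -0.026 and 0.26 in preps 1 and 3 for Col3a1 and 0.21, -0.32 and 0.18 for Col4a1. In the brain Col1a1 correlated by 0.74 with Col1a2 and by 0.63 with Col3a1 in prep 1, and by 0.25 with Col4a1 without the 2 farthest libraries. The cause was not tested. Depth limits members near 0 CPM.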

Other observations

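A few livers held transcripts of collagens that were close to 0 in nearly all others. Col11a1, a fibrillar chain of cartilage, had a median of 0 CPM at 28 months and a highest value of 2.83 CPM, in replicate 14, which also held the highest 28-month values of Col22a1 (0.719 CPM) and Col28a1 (1.41 CPM). Col17a1, the collagen that anchors epithelial cells, had a median of 0.0922 CPM at 28 months and 4.28 CPM in replicate 9, the liver with the highest summed macrophage markers (4242 CPM) and, of the 28-month livers, the one with the lowest median correlation with all other livers (0.93). These members were too low for the filter used. With the filter of 10 counts in all, edgeR gave higher values at 28 than at 3 months in the liver. The log2 fold changes were 3.71 for Col11a1, 4.94 for Col22a1, 1.67 for Col28a1 and 1.70 for Col9a1. A single high liver can carry a gene past that filter, so the libraries that admitted these genes also set their changes. Over values close to 0 the size of such a change is not well determined. The looser filter was not fitted without replicate 14, and no age change is read from these values.

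Among the brain libraries, replicate 15 of 28 months had the lowest value of Col25a1 (7.81 CPM) and Col4a1 (16.8 CPM) and the highest of Col27a1 (27.5 CPM, where the 28-month median was 7.83 CPM). It is the brain library least like the others. The next lowest Col25a1 (28.8 CPM) and Col4a1 (28.9 CPM) were those of replicate 13 of 24 months, the brain library with the second lowest correlation with the others.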
